A study of Mus musculus with 30 samples.

Results

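The insulin-like growth factor (IGF) system was followed through 10 genes, out of 29861 listed, in mouse tail fibroblasts exposed to 8 compounds. The genes were listed by symbol, with earlier results of these data known. They are the ligands Igf1 and Igf2, the receptors Igf1r and Igf2r, and the binding proteins Igfbp2, Igfbp3, Igfbp4, Igfbp5, Igfbp6 and Igfbp7. RNA sequencing of total RNA was done on the primary line CCG-HTA-1, made from the genetically mixed UMHet3 mouse stock and used at passage 4. Cells were collected 48 hours after Antimycin A, Dihydrorotenone, Diphenyleneiodonium Cl, Cardamonin, BerberineA, Clofilium tosylate, AEG 3482 or Podofilox was added, with 3 libraries for each, or after the solvent DMSO, with 6 libraries. The series text speaks of 5 DMSO replicates, but the labels name 6, and all 6 were used. All 9 groups share the line, the high-glucose medium with serum and ambient oxygen, and doses are not given in the sources used here. Donor mice were 5 to 8 weeks old, except that the label of Dihydrorotenone replicate 1 gives 8 to 11 weeks. All 30 libraries come from 1 cell line and no label says that they came from separate cultures, so p-values measure only the spread between libraries, which may be technical. Library numbers run consecutively within each group, so a compound and a library batch cannot be told apart.

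IGF1 and IGF2 are secreted growth factors that act through the IGF1 receptor, a tyrosine kinase that promotes growth and survival. The IGF2 receptor, also the cation-independent mannose 6-phosphate receptor, takes IGF2 up for lysosomal degradation and does not signal growth in the same way. IGF binding proteins are secreted carriers that hold IGFs outside the cell and can restrain or deliver them, and fibroblasts are a known source of several of them.

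Values are TPM, transcripts per 1000000 transcripts, a level scaled for transcript length and for the library total, so genes can be compared within a library. The number of reads behind a value is unknown. Fold changes are on the log2(TPM + 1) scale, where low genes appear to change less than they did, and each comes from 1 limma fit of all 30 libraries over 13644 genes. A change was called at a Benjamini-Hochberg adjusted p below 0.05 over all genes tested. All 10 genes passed the filter of at least 1 TPM in at least 3 libraries. Of 10 fibroblast markers, all 10 had a mean above 1 TPM. Their summed level was 9759 to 11278 TPM in DMSO, 3806 to 4819 TPM in Cardamonin and 7682 to 12151 TPM in the other compounds. This sum is mostly collagen genes, Vim and Dcn, and single markers differed from it: 8 to 10 of the 10 had a mean below that of DMSO in each compound. In AEG 3482, with the highest sum, Col3a1 (4732 against 2726 TPM in DMSO) and Vim (3574 against 2542 TPM) were higher and the other 8 lower, among them Dcn (608 against 1472 TPM) and Lum (101 against 308 TPM). In bulk RNA, fewer cells of a type and less RNA per cell cannot be told apart. The keratinocyte, endothelial, skeletal muscle, adipocyte and chondrocyte marker sums were at most 2.38 TPM in any library, and Krt5, Myod1 and Plin1 were at 0 in all of them. The sum of 4 leukocyte markers was 35.1 to 63.9 TPM outside Podofilox and 106 to 125 TPM in Podofilox, where Cd14 alone had a mean of 108 TPM. The macrophage marker Adgre1 went the other way, from 10.4 TPM in DMSO to 3.35 TPM in Podofilox, 2.62 TPM in Antimycin A, 2.48 TPM in AEG 3482 and 1.91 TPM in Cardamonin, and Csf1r was at 2.98 TPM in DMSO and 0.888 TPM in Cardamonin. The sum of 4 melanocyte and Schwann cell markers was 4.02 to 5.93 TPM in DMSO, 15.0 to 17.2 TPM in Antimycin A and below 1 TPM in Cardamonin and AEG 3482, and in DMSO Mlana made up 4.41 TPM of it on average. The part of these markers in the results below was not tested.

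Promoter windows of 5 members are shown first, from 250 bases before to 50 after the start listed by RefSeq (GRCm38.p6). They cover Igfbp5, with the steepest fall, Igfbp4, the most abundant member, Igf1, and Igfbp3, which rose in Cardamonin and AEG 3482 and fell in the other compounds. The window at the upstream start of Igfbp2 held none of the searched motifs and is not shown. The window at the downstream start of Igfbp2, a neighbour of Igfbp5, holds a motif match and is added. Each is written 5′ to 3′ on the gene's own strand, which is the plus strand for Igfbp2, Igfbp4 and Igf1 and the minus strand for Igfbp3 and Igfbp5. Capitals mark matches to the searched motifs.
Igfbp5 (chr1:72874816-72875115): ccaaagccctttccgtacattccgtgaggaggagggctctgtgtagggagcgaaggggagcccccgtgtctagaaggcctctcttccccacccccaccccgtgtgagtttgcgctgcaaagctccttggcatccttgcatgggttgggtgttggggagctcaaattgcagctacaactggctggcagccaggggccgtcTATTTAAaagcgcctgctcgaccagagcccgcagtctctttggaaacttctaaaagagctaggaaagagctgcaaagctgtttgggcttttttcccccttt
Igfbp4 (chr11:99040994-99041293): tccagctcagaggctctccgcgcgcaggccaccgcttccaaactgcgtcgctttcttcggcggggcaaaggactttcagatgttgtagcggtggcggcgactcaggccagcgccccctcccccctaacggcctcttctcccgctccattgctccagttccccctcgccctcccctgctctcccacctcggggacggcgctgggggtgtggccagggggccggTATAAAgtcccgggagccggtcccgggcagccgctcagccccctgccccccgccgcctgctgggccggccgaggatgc
Igfbp2 (chr1:72825137-72825436): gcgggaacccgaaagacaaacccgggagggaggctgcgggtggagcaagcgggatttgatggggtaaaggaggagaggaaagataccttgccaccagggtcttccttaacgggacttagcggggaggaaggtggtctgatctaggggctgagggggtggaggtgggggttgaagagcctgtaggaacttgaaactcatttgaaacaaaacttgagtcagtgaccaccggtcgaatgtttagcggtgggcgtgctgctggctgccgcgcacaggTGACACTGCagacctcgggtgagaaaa
Igf1 (chr10:87860861-87861160): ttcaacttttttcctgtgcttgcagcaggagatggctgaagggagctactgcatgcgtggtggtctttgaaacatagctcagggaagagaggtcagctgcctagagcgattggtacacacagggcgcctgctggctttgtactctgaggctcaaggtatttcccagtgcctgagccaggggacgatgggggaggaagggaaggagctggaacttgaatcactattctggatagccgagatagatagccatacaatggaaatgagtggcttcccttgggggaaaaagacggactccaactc
Igfbp3 (chr11:7213874-7214173): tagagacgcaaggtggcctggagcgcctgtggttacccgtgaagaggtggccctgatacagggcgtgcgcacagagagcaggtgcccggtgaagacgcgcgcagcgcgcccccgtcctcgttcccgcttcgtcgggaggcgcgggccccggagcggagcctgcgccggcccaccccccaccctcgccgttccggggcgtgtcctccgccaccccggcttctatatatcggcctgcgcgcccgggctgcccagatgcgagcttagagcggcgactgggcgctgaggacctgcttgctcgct

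All 10 genes matched RefSeq entries, with 14 promoter windows between them. The antioxidant response element core bound by NRF2, TGACNNNGC, was searched on both strands and matched 2 of the 14 windows, against 12.4% of 32851 windows of the same length in the genome. Those matches were in the downstream window of Igfbp2, 24 bases after the start, and in the second of 4 Igf2 windows. The core TGATGNAA of the element that ATF4 and C/EBP factors bind matched 0 of 14 windows and 3.97% of all windows. The TATA box variants TATAAA and TATTTAA, added after the sequences were seen, matched 2 and 1 of the 14 windows, against 13.6% and 4.51% of all. The TATTTAA of Igfbp5 began 51 bases before the start and the TATAAA of Igfbp4 28 bases before it, and the other TATAAA match lay on the opposite strand of the Igfbp6 window. Each matched window held a single match, so no motifs overlapped, and the windows of Igf1 and Igfbp3 held none of the searched motifs. The Igfbp3 window does hold the run tatatat upstream of its start, a TATA-like form that was not searched. Its lack of a match therefore does not show that it lacks such an element.

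In DMSO the binding proteins were the abundant part of the system. Igfbp4, an IGF carrier that mostly restrains IGF action, had 2058 ± 136 TPM (SD, n = 6) and ranked at position 46 among all listed genes. Igfbp2 followed at 673 ± 50.1 TPM, Igfbp7 at 483 ± 46.2 TPM, Igfbp3 at 325 ± 20.6 TPM, Igfbp6 at 221 ± 17.1 TPM and Igfbp5 at 204 ± 27.7 TPM. The receptors were lower, with Igf2r at 65.2 ± 2.81 TPM and Igf1r at 30.6 ± 3.36 TPM. The ligands were lowest, with Igf1 at 22.5 ± 4.71 TPM and Igf2 at 5.69 ± 1.15 TPM. Igfbp1, the remaining classical binding protein, was at 0 in every compound library and at most 0.0396 TPM in DMSO.

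**Figure D1:**
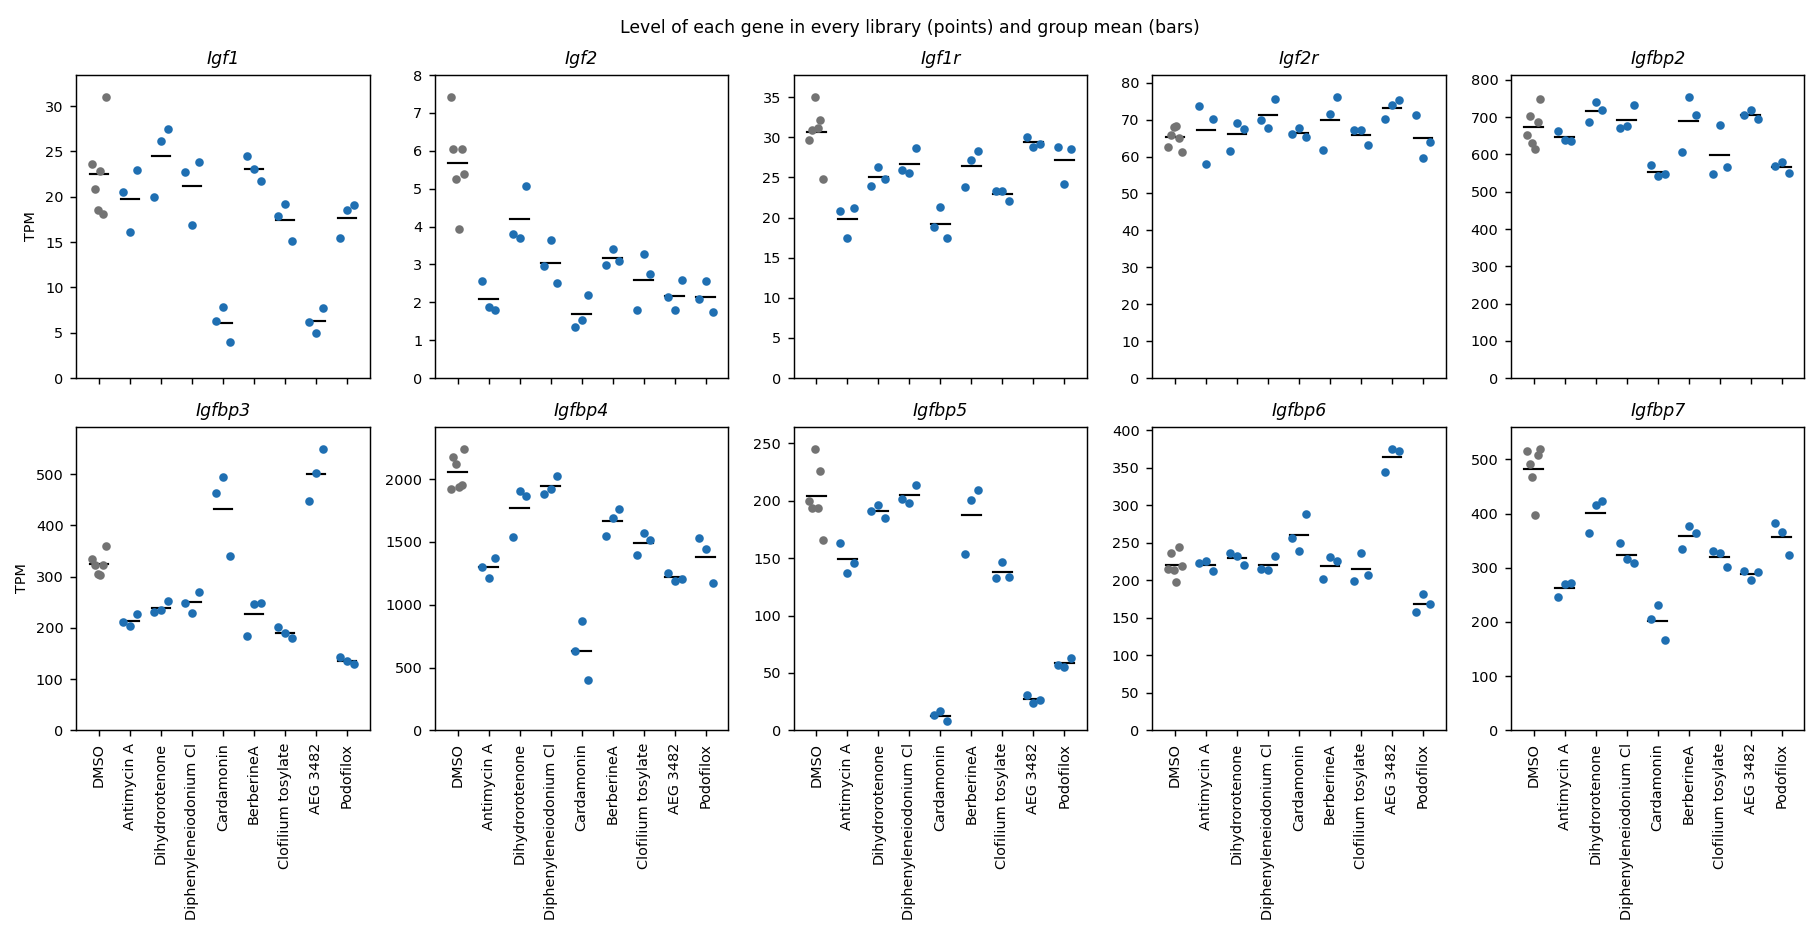
TPM of each of the 10 genes (vertical axes, linear and starting at 0) in every library (points), with DMSO in grey, compounds in blue and group means as black bars. Igfbp5 is at 7.96 to 17.0 TPM in Cardamonin and 24.2 to 30.4 TPM in AEG 3482 against 166 to 245 TPM in DMSO, while Igf2r stays between 58.0 and 76.1 TPM in every library.

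Across the 80 comparisons of a member with DMSO, 40 were called lower, 5 higher, and 35 were not called. In Cardamonin 9 of 10 members changed, 7 lower and 2 higher, where 70.3% of all tested genes changed and 33.0% were lower. In AEG 3482 8 changed, 5 lower and 3 higher, where 68.1% of all genes changed and 26.8% were lower. Podofilox lowered 7 members and raised 0, against 46.2% of all genes changed and 2725 of 13644 lower. Antimycin A lowered 6, where 37.3% of all genes changed and 15.5% were lower. Clofilium tosylate also lowered 6, with 23.4% of all genes changed and 12.5% lower. The count was 3 lower members in each of Dihydrorotenone (14.4% of all genes changed, 9.43% lower), Diphenyleneiodonium Cl (25.7% and 11.7%) and BerberineA (21.7% and 9.16%). The medians of the 10 log2 fold changes were −0.96 in Cardamonin, −0.52 in Antimycin A, −0.43 in Clofilium tosylate, −0.41 in Podofilox and −0.40 in AEG 3482. They were −0.16 in BerberineA, −0.15 in Dihydrorotenone and −0.08 in Diphenyleneiodonium Cl. The median over all tested genes was 0.10 in AEG 3482 and lay between −0.03 and 0.04 in the other compounds. All 8 comparisons share the DMSO libraries.

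**Figure D2:**
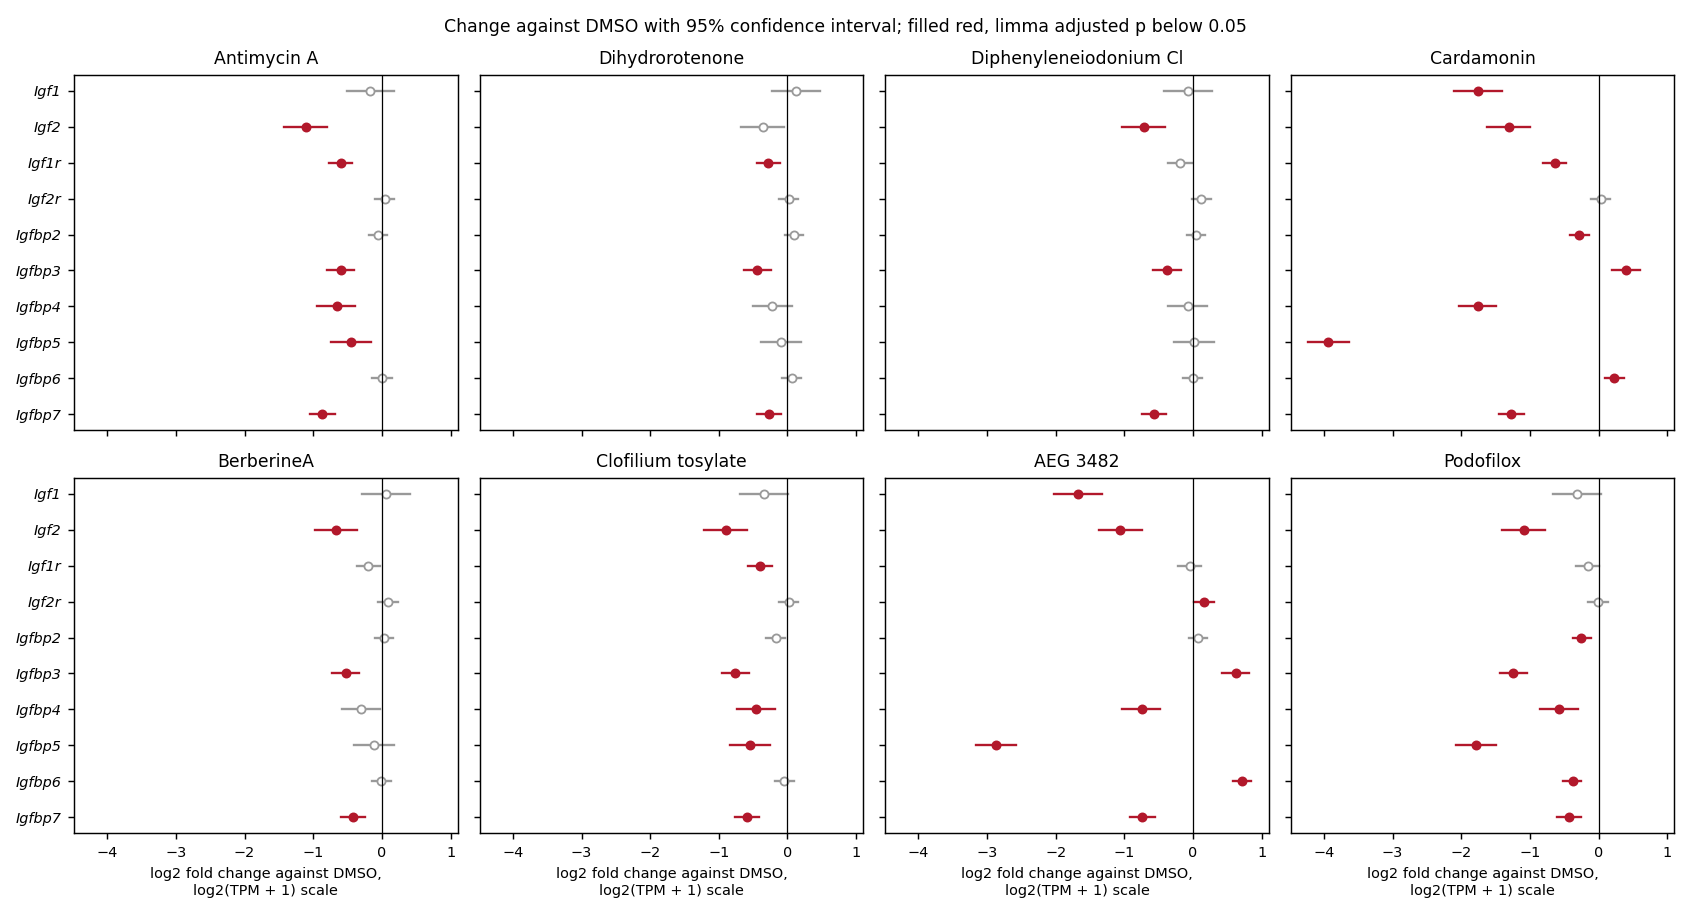
Log2 fold change against DMSO on the log2(TPM + 1) scale (horizontal axes) for the 10 genes in each compound, with 95% confidence intervals; filled red points passed a limma adjusted p below 0.05 and open grey points did not. Igfbp5 lies at −3.94 in Cardamonin, −2.87 in AEG 3482 and −1.78 in Podofilox, and Igfbp3 lies above 0 in Cardamonin and AEG 3482 and below 0 in the other 6 compounds.

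Igf1 (ENSMUSG00000020053, chromosome 10, 87858265 to 87937042) encodes the main growth-promoting ligand. It had 6.33, 7.88 and 3.96 TPM in Cardamonin, 6.16, 4.94 and 7.78 TPM in AEG 3482, and 18.1 to 31.0 TPM with a median of 21.9 TPM in DMSO. Every library of these compounds was below every DMSO library. The log2 fold change was −1.75 ± 0.17 in Cardamonin (SE; limma adjusted p = 9.80e-10) and −1.68 ± 0.17 in AEG 3482 (limma adjusted p = 2.75e-09). The levels in Cardamonin and AEG 3482 were not called different, with a direct log2 difference of −0.07 and a 95% confidence interval of −0.47 to 0.33. In the other 6 compounds group means ran from 17.4 TPM in Clofilium tosylate to 24.5 TPM in Dihydrorotenone, their ranges overlapped that of DMSO, and no change was called. In the order of the 9 groups, the only neighbours whose library ranges did not overlap were Clofilium tosylate and AEG 3482. Igf1os overlaps Igf1 on the opposite strand, and whether counting used strand is not given in the sources used here.

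Igf2 (ENSMUSG00000048583, chromosome 7, 142650766 to 142666816), an imprinted gene for the ligand best known in fetal growth, was lower in 7 compounds. DMSO libraries had 3.94 to 7.42 TPM with a median of 5.73 TPM. Cardamonin libraries had 1.34, 1.53 and 2.20 TPM, Antimycin A 2.57, 1.87 and 1.80 TPM, and Podofilox 2.09, 2.56 and 1.74 TPM. All 9 of these libraries lay below the lowest DMSO library. The log2 fold changes were −1.31 in Cardamonin, −1.11 in Antimycin A, −1.09 in Podofilox, −1.06 in AEG 3482, −0.90 in Clofilium tosylate, −0.72 in Diphenyleneiodonium Cl and −0.67 in BerberineA, each with an SE of 0.15. Dihydrorotenone, with 3.80, 3.69 and 5.08 TPM, overlapped DMSO and was not called (log2 fold change −0.36, limma adjusted p = 0.117), except without DMSO replicate 4 (−0.44). Igf2 was lower in Antimycin A than in Dihydrorotenone by a log2 difference of −0.75 ± 0.17 (SE; limma adjusted p = 0.00366). Of its 31-mers, 63.1% also occur in another gene, mostly the overlapping same-strand gene Gm49394. Gm49394 is not among the listed genes and the transcript index is unknown, so whether reads were divided between these genes is uncertain.

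Igf1r (ENSMUSG00000005533, chromosome 7, 67952827 to 68233668) encodes the signalling receptor. It had 24.8 to 35.0 TPM in DMSO with a median of 31.1 TPM, against 18.8, 21.3 and 17.5 TPM in Cardamonin and 20.8, 17.5 and 21.2 TPM in Antimycin A. These ranges did not overlap that of DMSO, and limma put the changes at −0.64 and −0.60 (log2, SE 0.08 for both). Clofilium tosylate gave a change of −0.40 (limma adjusted p = 8.16e-04) and Dihydrorotenone one of −0.28 (0.0247), the latter with overlapping ranges. The Dihydrorotenone call was lost in a fit of that compound and DMSO alone (−0.28, limma adjusted p = 0.0995). It was also lost without Dihydrorotenone replicate 1 (−0.25) or 3 (−0.27) or DMSO replicate 3 (−0.24). In AEG 3482 it had 28.8 to 30.0 TPM and was not called (−0.05, limma adjusted p = 0.596), but it was called lower after median-ratio scaling (−0.16) and quantile normalization (−0.21). Diphenyleneiodonium Cl (−0.19), BerberineA (−0.20) and Podofilox (−0.16) were likewise not called but passed after median-ratio scaling, at −0.20, −0.23 and −0.19, and without DMSO replicate 6, at −0.24, −0.26 and −0.22. The direct difference of Cardamonin from AEG 3482 was −0.59 ± 0.10 (SE; limma adjusted p = 9.02e-06).

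Igf2r (ENSMUSG00000023830, chromosome 17, 12682406 to 12769664), the clearance receptor, varied little. Group means lay between 64.9 TPM in Podofilox and 73.1 TPM in AEG 3482, and all 8 neighbouring pairs in that order overlapped. Its call in AEG 3482, with 70.2, 74.0 and 75.3 TPM against 61.2 to 68.3 TPM in DMSO (log2 fold change 0.16 ± 0.07, limma adjusted p = 0.0351), depended on the scaling: the value was 0.06 after median-ratio scaling and −0.01 after quantile normalization, neither of them called. The call was also lost without AEG 3482 replicate 2 (0.16) or 3 (0.14) or DMSO replicate 1 or 6 (0.15 each). In Cardamonin, where Igf1r fell, Igf2r had 65.4 to 67.6 TPM and a change of 0.03 with a 95% confidence interval of −0.11 to 0.17. The opposite-strand gene Airn overlaps it in the annotation, and none of its 31-mers occurs in another gene's transcripts.

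Igfbp5 (ENSMUSG00000026185, chromosome 1, 72857932 to 72874884) encodes a carrier that also binds extracellular matrix. DMSO libraries had 166 to 245 TPM with a median of 197 TPM. Cardamonin libraries had 13.6, 17.0 and 7.96 TPM, AEG 3482 libraries 30.4, 24.2 and 26.3 TPM, and Podofilox libraries 56.7, 55.6 and 63.1 TPM. These 3 groups overlapped neither DMSO nor each other, and their means were 6.30%, 13.2% and 28.6% of the DMSO mean. The log2 fold changes were −3.94 ± 0.14 (SE; limma adjusted p = 2.39e-18), −2.87 ± 0.14 (2.71e-15) and −1.78 ± 0.14 (1.36e-10). Direct contrasts gave −1.07 ± 0.16 for Cardamonin against AEG 3482 (limma adjusted p = 4.37e-06) and 2.16 ± 0.16 for Podofilox against Cardamonin (1.92e-11). Smaller falls were called in Clofilium tosylate, with 133 to 147 TPM (−0.55, limma adjusted p = 0.00523), and Antimycin A, with 137 to 163 TPM (−0.45, 0.0139). The latter was −0.39 and not called without Antimycin A replicate 2. Dihydrorotenone, Diphenyleneiodonium Cl and BerberineA overlapped DMSO, with means of 188 to 205 TPM.

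Igfbp2 (ENSMUSG00000039323, chromosome 1, 72824503 to 72852474) is the tail-to-tail neighbour of Igfbp5, with 5457 bases between the ends of the genes. Where Igfbp5 was at 6.30% of DMSO in Cardamonin, Igfbp2 was at 82.3%, with 573, 541 and 547 TPM against 614 to 749 TPM in DMSO (log2 fold change −0.28 ± 0.06, limma adjusted p = 4.78e-04). Podofilox had 568, 581 and 550.0 TPM (−0.25, limma adjusted p = 0.00292), and this call was lost after quantile normalization (−0.15). In AEG 3482 Igfbp2 was not called, at 695 to 718 TPM (0.07, limma adjusted p = 0.332), although quantile normalization called it higher (0.15). Clofilium tosylate, at 548 to 679 TPM, was just short of a call (−0.17, limma adjusted p = 0.0540) and was called without its replicate 2 (−0.27) or without DMSO replicate 3 (−0.19) or 4 (−0.20). All 8 neighbouring pairs of groups overlapped in its order of levels.

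Igfbp3 (ENSMUSG00000020427, chromosome 11, 7206086 to 7213923), the main IGF carrier of serum, changed in all 8 compounds and in opposite directions. It had 303 to 359 TPM in DMSO with a median of 322 TPM. AEG 3482 libraries had 448, 503 and 549 TPM, all above DMSO, and Cardamonin libraries 464, 495 and 339.7 TPM, the last inside the DMSO range. The log2 fold changes were 0.62 ± 0.10 in AEG 3482 (SE; limma adjusted p = 3.31e-06) and 0.40 ± 0.10 in Cardamonin (7.04e-04). Podofilox libraries had 143, 136 and 129 TPM, below all other groups, with a change of −1.24 ± 0.10 (limma adjusted p = 8.56e-11). The remaining 5 compounds lay below DMSO without overlap, from −0.76 in Clofilium tosylate to −0.38 in Diphenyleneiodonium Cl. Podofilox differed from Cardamonin by −1.64 ± 0.11 (SE; limma adjusted p = 2.39e-12), while Cardamonin against AEG 3482 was not called (−0.22, 95% confidence interval −0.45 to 0.01). That difference was called without Cardamonin replicate 2 (−0.33) or AEG 3482 replicate 1 (−0.30).

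Igfbp6 (ENSMUSG00000023046, chromosome 15, 102144362 to 102149511), a carrier that prefers IGF2, was higher in Cardamonin and AEG 3482 and lower in Podofilox. AEG 3482 libraries had 345, 375 and 372 TPM against 198 to 245 TPM in DMSO, or 0.72 ± 0.07 on the log2 scale (limma adjusted p = 7.03e-10). Cardamonin libraries had 257, 239 and 288 TPM, of which replicate 2 lay inside the DMSO range, with a change of 0.23 ± 0.07 (0.00313). That call was lost after quantile normalization (0.12) and without Cardamonin replicate 3 (0.16). Podofilox libraries had 158, 182 and 168 TPM, all below DMSO (−0.38, limma adjusted p = 3.52e-05). The other 5 compounds had means of 215 to 229.9 TPM, with ranges overlapping DMSO and no call.

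Igfbp4 (ENSMUSG00000017493, chromosome 11, 99041244 to 99054392) had 1925 to 2239 TPM in DMSO with a median of 2037 TPM. Its product is cut by the protease pregnancy-associated plasma protein A, which releases bound IGF. Cardamonin libraries had 629.9, 869.8 and 402 TPM and AEG 3482 libraries 1254, 1191 and 1209 TPM. The log2 fold changes were −1.76 ± 0.13 (SE; limma adjusted p = 9.45e-12) and −0.75 ± 0.13 (2.14e-05), and the direct difference of −1.01 ± 0.15 was called (limma adjusted p = 4.38e-06). Antimycin A (−0.66), Podofilox (−0.58) and Clofilium tosylate (−0.46) also lowered it, the last not called without Clofilium tosylate replicate 1 (−0.41). BerberineA (−0.30) and Dihydrorotenone (−0.22) lay below DMSO without overlap of their libraries and were not called, with limma adjusted p-values of 0.115 and 0.306. In a fit of BerberineA and DMSO alone the first of these was called (limma adjusted p = 0.0135).

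Igfbp7 (ENSMUSG00000036256, chromosome 5, 77349240 to 77408041), a secreted relative that binds IGFs weakly, was called lower in all 8 compounds. DMSO libraries had 397 to 519 TPM with a median of 499.7 TPM. Cardamonin libraries had 205, 232 and 166 TPM (−1.27 ± 0.09, SE; limma adjusted p = 8.18e-13), and Antimycin A libraries 247, 271 and 272 TPM (−0.87 ± 0.09; 1.05e-08). Changes in the other compounds ran from −0.74 in AEG 3482 to −0.27 in Dihydrorotenone. The Dihydrorotenone libraries overlapped DMSO at 364 to 424 TPM (limma adjusted p = 0.0370), and the call was lost without replicate 1 or 2 of Dihydrorotenone, with values of −0.20 and −0.29. Leaving out DMSO replicate 1, 2, 5 or 6 also lost it, with values of −0.24 to −0.26, as did median-ratio scaling (−0.22) and a fit of that compound and DMSO alone (−0.27). Antimycin A was lower than Dihydrorotenone by −0.60 ± 0.10 (SE; limma adjusted p = 9.76e-05). Of the 31-mers of Igfbp7, 4.57% also occur in Polr2b, whose end overlaps it on the opposite strand.

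The summed TPM of Igfbp2 to Igfbp7 and its make-up were described without a test. DMSO libraries summed to 3964 ± 213 TPM (SD, n = 6), against 2095 ± 324 TPM for Cardamonin, 2672 ± 229 TPM in Podofilox, 2790 ± 91.2 TPM in Antimycin A, 2956 ± 177 TPM in Clofilium tosylate and 3103 ± 34.9 TPM in AEG 3482 (SD, n = 3 each). The sum was 3350 ± 276 TPM in BerberineA, 3548 ± 260.3 TPM in Dihydrorotenone and 3635 ± 129 TPM in Diphenyleneiodonium Cl. Igfbp4 made up 51.9% of the sum in DMSO, 29.6% in Cardamonin and 39.2% in AEG 3482, and 46.5% to 53.5% in the other 6 compounds. Igfbp3 made up 8.19% of the sum in DMSO, 20.6% in Cardamonin and 16.1% in AEG 3482, and Igfbp6 5.59%, 12.8% and 11.7% in the same order. Igfbp5 made up 5.17% in DMSO and 0.601%, 0.870% and 2.21% in Cardamonin, AEG 3482 and Podofilox. Igfbp2 made up 17.0% in DMSO, 26.9% in Cardamonin and 22.8% in AEG 3482. The Cardamonin and AEG 3482 sums held a larger share of Igfbp2, Igfbp3 and Igfbp6 than the DMSO pool. Their share of Igfbp4, Igfbp5 and Igfbp7 was smaller, with Igfbp7 at 12.2% in DMSO, 9.58% in Cardamonin and 9.27% in AEG 3482. The mean shares of Igfbp2 and Igfbp6 were above DMSO in all 8 compounds, where the mean sum was below that of DMSO. A larger share is not a higher level. In Podofilox both genes were called lower, at 566 and 169 TPM against 673 and 221 TPM in DMSO. Igfbp6 was called higher only in Cardamonin and AEG 3482, and Igfbp2 in no compound. Over the Cardamonin libraries the Igfbp4 share ran from 22.9% to 36.3% and the Igfbp6 share from 9.97% to 16.4%.

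**Figure D3:**
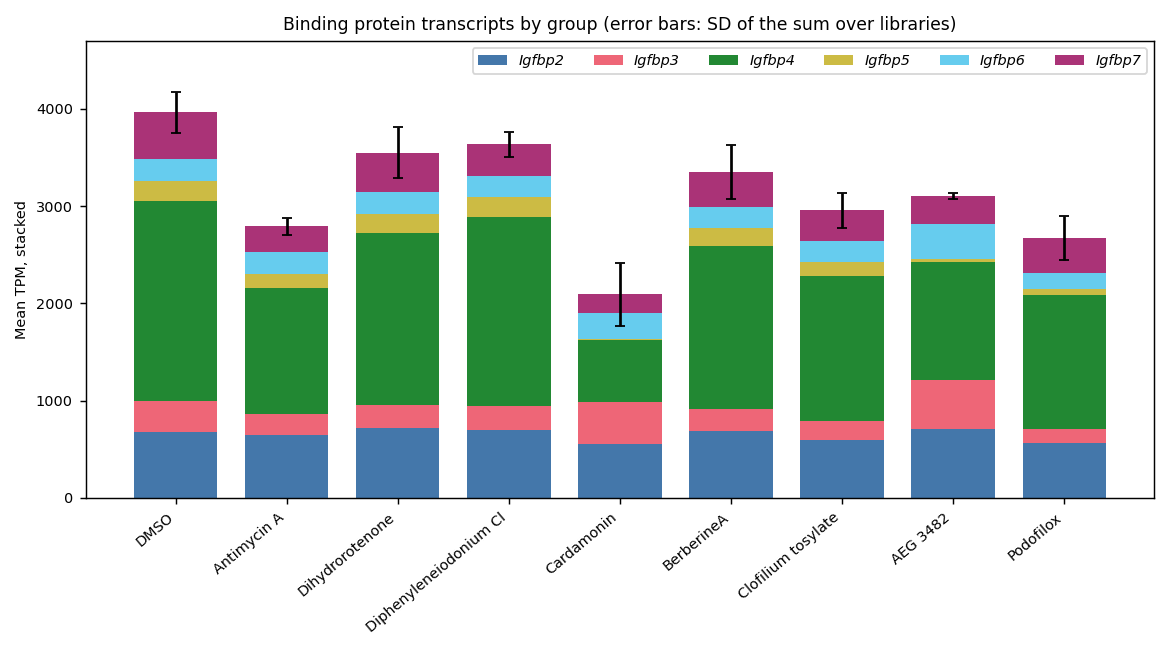
Mean TPM of the 6 binding protein genes stacked by group (vertical axis from 0; error bars, SD of the sum over 3 libraries, or 6 for DMSO). The stack is 3964 TPM in DMSO and 2095 TPM in Cardamonin, where the Igfbp4 layer is 634 TPM against 2058 TPM and the Igfbp5 layer is 12.9 TPM against 204 TPM.

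Between compounds, 6 direct contrasts were tested. Cardamonin was lower than AEG 3482 in 6 members and higher in 0, where 55.3% of all genes differed and 32.7% were lower. The 6 were Igf1r, Igfbp2, Igfbp4, Igfbp5, Igfbp6 and Igfbp7. Podofilox was higher than Cardamonin in 5 members (Igf1, Igf1r, Igfbp4, Igfbp5 and Igfbp7) and lower in 2 (Igfbp3 and Igfbp6), with 57.8% of all genes called, 29.1% higher and 28.7% lower. Antimycin A was lower than Dihydrorotenone in 3, namely Igf2, Igf1r and Igfbp7, where 15.5% of all genes were called and 3.91% were lower. The Igf1r difference, −0.32 (limma adjusted p = 0.0202), was not called without Antimycin A replicate 2 (−0.24) or Dihydrorotenone replicate 2 (−0.29), or in a fit of these groups alone. No member was called between Antimycin A and Clofilium tosylate (5.21% of all genes), between Diphenyleneiodonium Cl and Dihydrorotenone (3.68%) or between BerberineA and Dihydrorotenone (1.51%). In the first of these, Igfbp7 was at a log2 difference of −0.28, with a 95% confidence interval of −0.48 to −0.08 and a limma adjusted p of 0.104. In the second, Igfbp7 was at −0.31 (−0.51 to −0.11; limma adjusted p = 0.0866), and missing the threshold does not show equal levels. Igfbp4 in Antimycin A against Dihydrorotenone was just short of a call (−0.44, limma adjusted p = 0.0525) and was called after median-ratio scaling (−0.51) and in a fit of these groups alone (−0.44).

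The rest of the pathway was covered by a list of 39 genes, of which 38 were listed and 31 passed the filter. Changed genes numbered 24 in Cardamonin (9 higher and 15 lower), 23 in AEG 3482 (9 and 14), 20 in Podofilox (8 and 12), 15 in Antimycin A (6 and 9) and 13 in Clofilium tosylate (5 and 8). They numbered 10 in Diphenyleneiodonium Cl and in BerberineA (6 and 4 each) and 5 in Dihydrorotenone (4 and 1). The share of the list called was 77.4% in Cardamonin, 74.2% in AEG 3482 and 16.1% in Dihydrorotenone, near the 70.3%, 68.1% and 14.4% of all tested genes. It was 64.5% in Podofilox beside 46.2%, 48.4% in Antimycin A beside 37.3% and 41.9% in Clofilium tosylate beside 23.4%. In Diphenyleneiodonium Cl and BerberineA it was 32.3% beside 25.7% and 21.7%. Median log2 fold changes ran from −0.19 in Cardamonin to 0.06 in Diphenyleneiodonium Cl, beside −0.03 to 0.10 over all genes tested.

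Signalling genes downstream of the receptors moved both ways. Pik3cb, a catalytic subunit of phosphoinositide 3-kinase, rose from 2.06 TPM in DMSO to 11.8 TPM in Cardamonin (log2 fold change 2.06, limma adjusted p = 8.38e-19) and 7.72 TPM in AEG 3482 (1.51). Pik3r1, a regulatory subunit of the same enzyme, fell from 40.6 to 17.5 TPM in Cardamonin (−1.16). Grb14, an adaptor that restrains insulin receptor signalling, fell from 27.4 to 5.11 TPM in Cardamonin (−2.21, limma adjusted p = 2.17e-17). Of the extracellular modulators, Htra1, a secreted protease that can cut binding proteins, fell in Cardamonin from 147 to 63.8 TPM (−1.20). The growth hormone receptor gene Ghr fell there from 104 to 46.9 TPM (−1.14). Falls of Pik3r1, Grb14, Htra1 and Ghr were also called in AEG 3482, at −0.77, −0.92, −0.76 and −0.72. In Podofilox the same genes were called lower, at −0.87, −0.58, −0.19 and −0.36.

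The list holds 3 CCN genes, for matrix-associated proteins with an IGFBP-like domain. Ccn1 and Ccn2 were below DMSO in every compound, while Ccn3 went the other way in 6 of them. Ccn2 and Ccn1 gave the steepest falls of the list, both in Cardamonin. Ccn2 had 128 TPM in DMSO, 2.10 TPM in Cardamonin (−5.51 ± 0.19, SE; limma adjusted p = 1.74e-18), 7.16 TPM in AEG 3482 (−3.96) and 32.2 TPM in Antimycin A (−1.94). It was at −1.49 in Podofilox, −1.47 in Diphenyleneiodonium Cl and −1.06 in Clofilium tosylate. Ccn1 was at 216 TPM in DMSO against 9.63 TPM for Cardamonin (−4.34), with −1.63 in AEG 3482 and −1.37 in both Podofilox and Antimycin A. Smaller falls of Ccn1 were called in Diphenyleneiodonium Cl (−0.97), Clofilium tosylate (−0.97) and BerberineA (−0.74). Ccn2 was also called lower in BerberineA (−0.87). In Dihydrorotenone neither Ccn1 (−0.23) nor Ccn2 (−0.53) was called. Ccn3, named after its values were seen, rose in 6 compounds, from 0.21 in Clofilium tosylate to 0.57 in Antimycin A, where it had 414 TPM against 278 TPM in DMSO (limma adjusted p = 4.95e-09). It fell in Cardamonin (−0.51) and in AEG 3482 (−0.98). Beside these changes, 10 of 10 fibroblast markers had a lower mean in Cardamonin than in DMSO, and 8 of 10 in AEG 3482. Where Ccn3 rose, the count was 9 of 10 in Antimycin A, Dihydrorotenone, Clofilium tosylate and Podofilox. It was 8 of 10 in Diphenyleneiodonium Cl and BerberineA. Any link between these counts and the CCN genes was not tested.

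**Figure D4:**
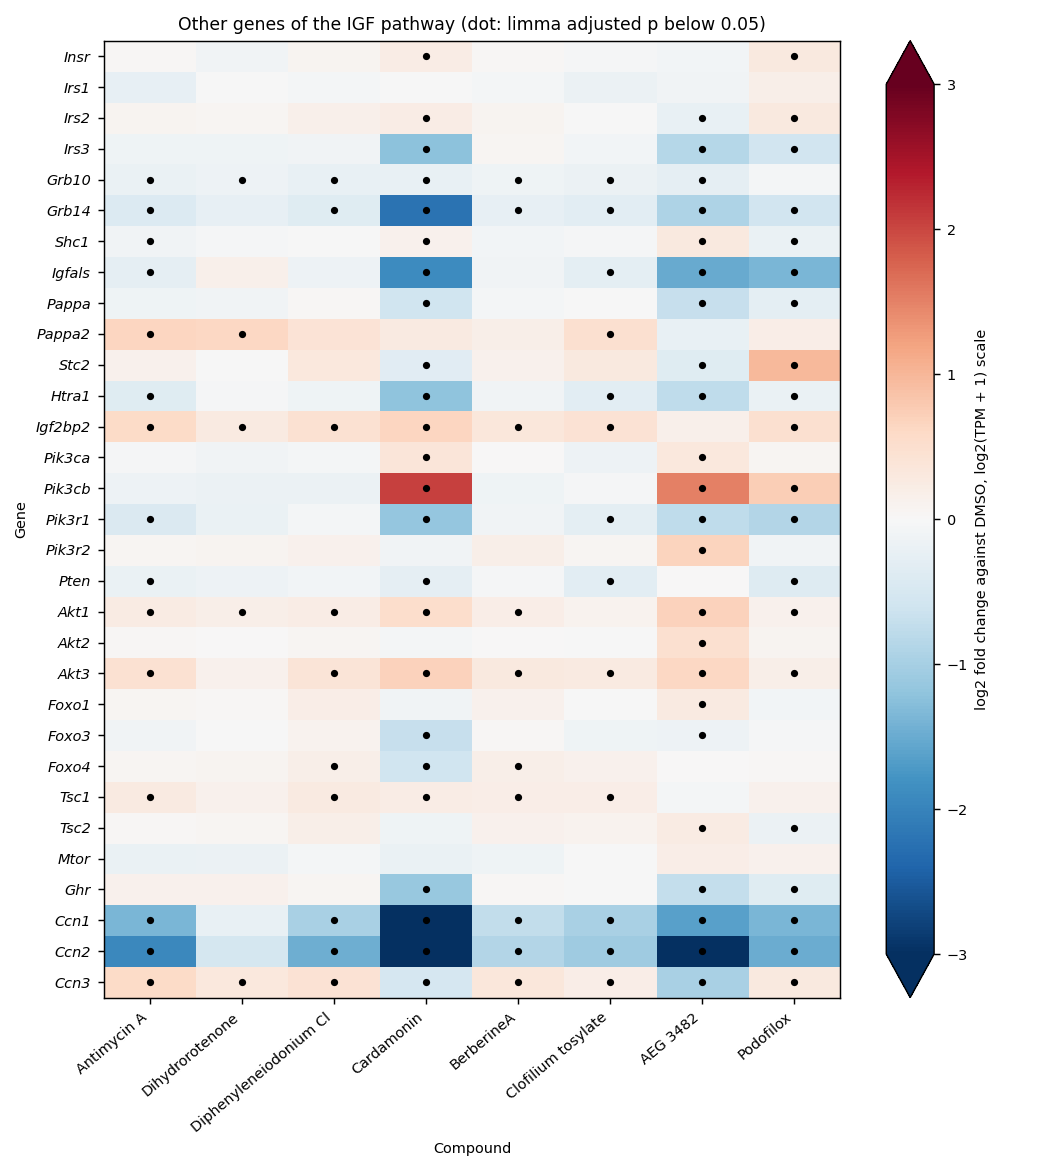
Log2 fold change against DMSO (colour, limited to −3 and 3 on the log2(TPM + 1) scale) of the 31 tested pathway genes (rows) in the 8 compounds (columns); dots mark a limma adjusted p below 0.05. Ccn2 is at −5.51 in Cardamonin and −3.96 in AEG 3482, beyond the colour range, and Pik3cb is at 2.06 and 1.51 in the same compounds.

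Genes with the most similar pattern were found by Pearson's r over the 9 group means of log2(TPM + 1) among 10218 genes, as a description, since these means share 1 DMSO group and each library's scaling. For Igfbp5 they were Vcam1, an adhesion molecule gene (r = 0.996), Epha4 (0.996) and Nnt (0.995). Vcam1 had 455 TPM in DMSO, 33.2 TPM in Cardamonin, 76.2 TPM in AEG 3482 and 167 TPM in Podofilox. For Igf1 they were Fgfr2, a fibroblast growth factor receptor gene (0.994), Nt5dc2 (0.992) and Dclk1 (0.991), and for Igfbp4 Hykk (0.990), the matrix gene Fbln1 (0.989) and Ccn5 (0.988). Igfbp3 was most like Fgfrl1 (0.990), Galnt13 (0.972) and Acss2 (0.970), and Igfbp6 like Usp46 (0.979), E2f1 (0.975) and Crot (0.974). Igfbp7 was most like Fgf10 (0.978), the collagen-binding Lum (0.973) and Tln2 (0.969), and Igf2 like Cd302 (0.975), Id4 (0.968) and Ifngr1 (0.964). For Igf1r and Igfbp2 the highest values were 0.957 with Spry2 and 0.962 with Elmod3.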

How the data were processed

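RNA was measured in 30 libraries of 1 cell line in 9 groups, taken from the sample titles. The authors quantified reads with kallisto 0.43.1 on mm10, per the submitters' processing notes, and summarised them per gene with tximport, per the series' design text. The deposited values are TPM made by the authors, and they sum to 927024 to 937134 TPM per library over the listed genes. The transcript index is not given in the sources used here. Symbols and positions (1-based, GRCm38) came from GENCODE M21, which matched 29426 of 29861 identifiers. Values were transformed to log2(TPM + 1), and 13644 genes were fitted with limma 3.58.1 in R 4.3.3, with group means, an intensity trend and Benjamini-Hochberg adjustment over genes within each comparison. The fit was tested on simulated data, but the outcome is not reported here and no support for the results is drawn from it. Depth cannot be recovered from TPM, so precision rests on the replicate spread. The pathway genes named are those called with an absolute log2 fold change of at least 1 and at least 5 TPM in the higher group in any compound. Similar genes are the 3 of highest r among genes reaching 5 TPM in a group, without predicted, Riken, clone or pseudogene names. The members, lists and tests were chosen with earlier results of these data known. Alternatives covered the pseudocount, filters, scalings, the groups fitted, a replicate block and leaving out each library. The genes most similar to Igf2r are not reported here.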

Additional observations from a re-analysis of the deposited data

How the results depend on the processing

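Of the 45 called changes of members against DMSO, 38 kept their direction and their call in every alternative run, and 7 lost the call in at least 1. Of the 35 comparisons not called, 8 passed in at least 1 alternative. The one reversal was Igf2r in AEG 3482, at −0.01 after quantile normalization. In a fit of only the groups compared, Dihydrorotenone had 898 genes changed against 1963, 1 member against 3 and 3 pathway genes against 5. In the same fit BerberineA had 5 pathway genes against 10 and Clofilium tosylate 8 against 13. Quantile normalization called 1 member between Antimycin A and Clofilium tosylate, and the replicate block called 1 between Diphenyleneiodonium Cl and Dihydrorotenone, where 0 were called.

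With 1 library left out in turn, Dihydrorotenone had 1233 to 2179 genes changed, the lowest without Dihydrorotenone replicate 1 (1266 without replicate 2). Members changed in Dihydrorotenone numbered 1 to 4, with 1 without Dihydrorotenone replicate 1. Its pathway genes numbered 1 to 8, with 1 without Dihydrorotenone replicate 2, 3 without DMSO replicate 3 and 8 without DMSO replicate 6. Pathway genes in BerberineA numbered 5 to 11, with 5 without BerberineA replicate 2 and 6 without replicate 3. Igf2 has no value under the filter on a mean of 5 TPM, which it did not pass.

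The replicate numbers share no stated origin. Of 108 pairs of same-numbered libraries from different groups, 4 correlated above 0.1 in their deviations from group means, and 13 of 27 libraries correlated best with their own number. The median correlation was 0.00799 for the same number and 0.000813 for different numbers. Whether 13 of 27 is more than chance would give was not tested. With the number as a block, 76 of 80 member comparisons kept their side of the threshold. The median over all genes in AEG 3482 was 0.097 as deposited and 0.003 after median-ratio scaling, so changes near 0.1 there depend on the scaling. Depth is unknown and the low TPM of Igf2 limits the precision of its values.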
